A study of Mus musculus with 3 samples.

Results

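The 10 genes described here, Lcn2, Saa3, Reg3g, Dmbt1, Pglyrp1, Slpi, Duox2, Duoxa2, C3 and Sftpd, encode secreted antimicrobial and mucosal defence proteins and an oxidase with its maturation factor. They were taken as a named list, and all 10 were among the 28692 genes of the deposited count matrix, of which 21005 had at least 1 count. The matrix held single-cell RNA-seq counts of unique molecular identifiers (UMIs, each standing for 1 captured transcript) from 3 pancreatic tumours of mice labelled KPf/fC. The titles call them KPC tumours, a usual name for a family of engineered mouse models of pancreatic cancer, and the labels give neither the alleles nor the Cre driver, age or sex. Per the labels, the cells were sorted as CD45-, CD31- and PDGFRa-, which selects against leukocytes, endothelial cells and PDGFRa-positive fibroblasts. There was 1 library per tumour, no untreated or normal pancreas, and no label saying whether each tumour came from its own animal, so p-values measure only the spread between these samples.

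Lcn2 (lipocalin 2), which binds bacterial siderophores and so withholds iron, Reg3g, a C-type lectin that kills Gram-positive bacteria, and Pglyrp1, which binds peptidoglycan, act directly on microbes. Dmbt1 and Sftpd (surfactant protein D) are secreted pattern-binding proteins that agglutinate microbes at mucosal surfaces. Duox2 is an epithelial NADPH oxidase that releases hydrogen peroxide and needs Duoxa2 to leave the endoplasmic reticulum. Slpi inhibits neutrophil elastase, Saa3 is an acute-phase serum amyloid, and C3 is the central component of complement. Many of these genes are known to be induced in epithelia by bacterial products and by the cytokines IL-17 and IL-22.

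After filtering, 5728, 5978 and 7284 cells remained of tumours 1, 2 and 3, from libraries of 53162622 to 67262634 UMIs. Cells were classed by at least 1 UMI of both genes of a marker pair. Epcam with Cdh1 gave 1917, 1484 and 2977 epithelial cells, Upk3b with Lrrn4 gave 228, 72 and 62 mesothelial cells, and Dcn with Col3a1 gave 2125, 1992 and 2293 fibroblasts. Serpinb2 with Ptgis gave 103, 64 and 16 stromal cells, and Rgs5 with Higd1b gave 258, 156 and 302 mural cells, which here served as a check on free RNA. The epithelial pair was exclusive: 928 of 7306 cells that met it together with another pair were left out. The other pairs overlapped, because 97.1% of cells meeting the mesothelial pair, 98.9% of those meeting the stromal pair and 19.4% of those meeting the mural pair also met the fibroblast pair. Of the 189 cells meeting the stromal pair, 32 also met the mesothelial pair. The sort sets how many cells of each class there are, so class sizes are no measure of tumour composition.

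The classes with a marker list carried their own markers, but not those alone. A list of 9 further epithelial genes (Krt8, Krt18, Krt19, Krt7, Cldn4, Cldn7, Spint2, Elf3 and Perp) summed to 9210 to 11200 CPM (the UMIs of a gene scaled to an equal total for every class and tumour) in epithelial cells and to 297 to 585 in mural cells. Mesothelial cells were themselves keratin-positive, as mesothelium is known to be, with the same list at 2190 to 3550 CPM. Fibroblasts reached 600 to 1760 CPM of it, and Krt8 stood at 436, 316 and 114 CPM in the fibroblasts of tumours 1, 2 and 3. The part of these transcripts in the fibroblast values was not tested. A list of 7 acinar genes summed to 2260, 70.2 and 2680 CPM in epithelial cells, with a UMI in 82.9%, 30.7% and 60.1% of them. The part of acinar cells or their RNA in the epithelial values was not tested. Pdgfra, which encodes the protein sorted against, averaged 80.4 CPM in fibroblasts. A list of 7 fibroblast genes summed to 4190 to 11800 CPM in fibroblasts and to 3020, 3610 and 3400 in mural cells. It reached 2520 to 3040 CPM in mesothelial cells and 2680 to 5290 in stromal cells, which had no marker list of their own. Neutrophils are a known source of Lcn2 and Pglyrp1. Their 10 markers summed to 0.784, 4.23 and 4.44 CPM in epithelial cells, with a UMI in 0.939%, 3.84% and 1.11% of them. Of these markers 4, 8 and 5 had counts. Ly6g, S100a8, S100a9 and Cxcr2 had counts in all 3 tumours, and Elane and Ngp were at 0 in all 3. The part of neutrophils in the epithelial values was not tested.

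Promoter sequences were available for 8 of the 10 genes (RefSeq, GRCm38.p6; none for Dmbt1 and Sftpd). The first 4 are shown because Lcn2, Slpi, Saa3 and C3 were the 4 genes higher in mesothelial cells than in fibroblasts, and because their windows alone among the 8 held TTGCNNAA, a core of the sequence that C/EBP factors bind. Each line gives the 250 bases before the annotated start site, 5′ to 3′ on the gene's strand, with the match in capitals. In Lcn2 and C3 the match reads in the gene's direction, and in Slpi and Saa3 it lies on the opposite strand.
Lcn2 (chr2:32387740-32387989, minus strand): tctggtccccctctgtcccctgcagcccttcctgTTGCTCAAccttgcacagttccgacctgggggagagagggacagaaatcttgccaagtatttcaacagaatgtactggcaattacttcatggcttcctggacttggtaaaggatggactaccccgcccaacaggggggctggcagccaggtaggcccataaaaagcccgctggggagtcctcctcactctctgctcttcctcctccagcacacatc
Slpi (chr2:164356508-164356757, minus strand): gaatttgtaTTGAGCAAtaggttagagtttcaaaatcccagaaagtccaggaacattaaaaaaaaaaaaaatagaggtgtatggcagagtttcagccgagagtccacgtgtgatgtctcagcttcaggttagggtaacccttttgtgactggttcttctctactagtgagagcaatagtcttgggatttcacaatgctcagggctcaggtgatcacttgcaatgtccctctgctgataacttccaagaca
Saa3 (chr7:46715677-46715926, minus strand): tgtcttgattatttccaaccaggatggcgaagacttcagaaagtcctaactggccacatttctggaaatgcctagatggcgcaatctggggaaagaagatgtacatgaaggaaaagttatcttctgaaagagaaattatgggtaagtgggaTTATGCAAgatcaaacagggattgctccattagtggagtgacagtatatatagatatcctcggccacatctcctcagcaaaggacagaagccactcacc
C3 (chr17:57228137-57228386, minus strand): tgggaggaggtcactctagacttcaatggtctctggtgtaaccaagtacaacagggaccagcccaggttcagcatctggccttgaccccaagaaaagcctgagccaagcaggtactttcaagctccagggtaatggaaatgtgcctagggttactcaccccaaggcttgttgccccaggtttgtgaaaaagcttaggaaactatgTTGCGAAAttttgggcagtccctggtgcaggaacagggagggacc

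The match was found on either strand in 10.8% of 32851 promoter windows of 300 bases (250 before and 50 after the start). It is 1 of 8 motifs searched, all chosen after the genes' values were seen, and a match is a description of letters, not a site in use. The looser TTNCNNAA, which contains every TTGCNNAA, matched the same 4 genes and Duox2, against 40.7% of all windows. The NF-kB consensus and its short form GGGNNTTCC, which can overlap it, each matched Reg3g and Pglyrp1, against 8.46% and 5.82%. TTCNNNGAA, the STAT form, matched none of the 8 (8.3% of all windows), and GGAA, the ETS core, matched all 8 (96.0%).

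Duox2 and Duoxa2 are shown because they form a head-to-head pair on chromosome 2, and because they had the highest median co-detection ratio of the 45 pairs among the 10 genes in epithelial cells. Their start sites lie 673 bases apart and are read in opposite directions. Capitals in Duoxa2 mark TGANTCA, the AP-1 form (7.81% of all windows), and TATAAA, the TATA box (13.6%). TGANTCA matched none of the other 7 genes, and TATAAA also matched Reg3g and C3. The C3 match begins at base 15 after the start site, outside the stretch shown above and not before the start as in Duoxa2. The Duox2 window held neither.
Duox2 (chr2:122298228-122298477, minus strand): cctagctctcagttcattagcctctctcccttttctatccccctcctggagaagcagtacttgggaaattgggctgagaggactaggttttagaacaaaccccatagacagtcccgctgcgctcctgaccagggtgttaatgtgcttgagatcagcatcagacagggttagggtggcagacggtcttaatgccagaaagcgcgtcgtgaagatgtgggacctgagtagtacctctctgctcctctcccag
Duoxa2 (chr2:122298650-122298899, plus strand): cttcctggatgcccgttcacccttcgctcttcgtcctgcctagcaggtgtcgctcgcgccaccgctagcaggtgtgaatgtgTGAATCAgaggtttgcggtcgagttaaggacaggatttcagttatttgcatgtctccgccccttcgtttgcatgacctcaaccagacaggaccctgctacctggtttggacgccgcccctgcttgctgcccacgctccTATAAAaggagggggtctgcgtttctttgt

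Levels below are CPM of the counts summed over the cells of a class in 1 tumour, and are compared within a gene only. The other classes are the 4 set beside epithelial cells, and cells that met no marker pair are described at the end. Log2 fold changes are from edgeR's quasi-likelihood test on those sums with the tumour as a block, with p-values adjusted over all genes by Benjamini-Hochberg and a threshold of 0.05. Fewer expressing cells and less RNA per cell cannot be told apart in a sum. The share of cells with a UMI is therefore given after thinning cells to 3000 UMIs. Cells with fewer UMIs were left out of those shares, among them 114 of the 302 mural cells of tumour 3. In each comparison with fibroblasts, mesothelial cells and stromal cells, 7 genes were higher in epithelial cells (Lcn2, Reg3g, Dmbt1, Pglyrp1, Duox2, Duoxa2 and Sftpd) and 3 were lower (Saa3, Slpi and C3).

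Against fibroblasts, 7 genes were higher and 3 lower, where 16.8% of all 14686 genes tested were higher and 22.8% lower. The median log2 difference of the 10 was 4.21, against -0.0415 over all genes. Against mesothelial cells the counts were the same, beside 22.1% higher and 18.4% lower among 13315 genes. Against stromal cells they were again 7 and 3, beside 16.3% and 15.9% of 12709 genes. That comparison rests on tumours 1 and 2, because tumour 3 had only 16 stromal cells, and with 2 tumours its p-values lean on the spread pooled over genes.

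**Figure D1:**
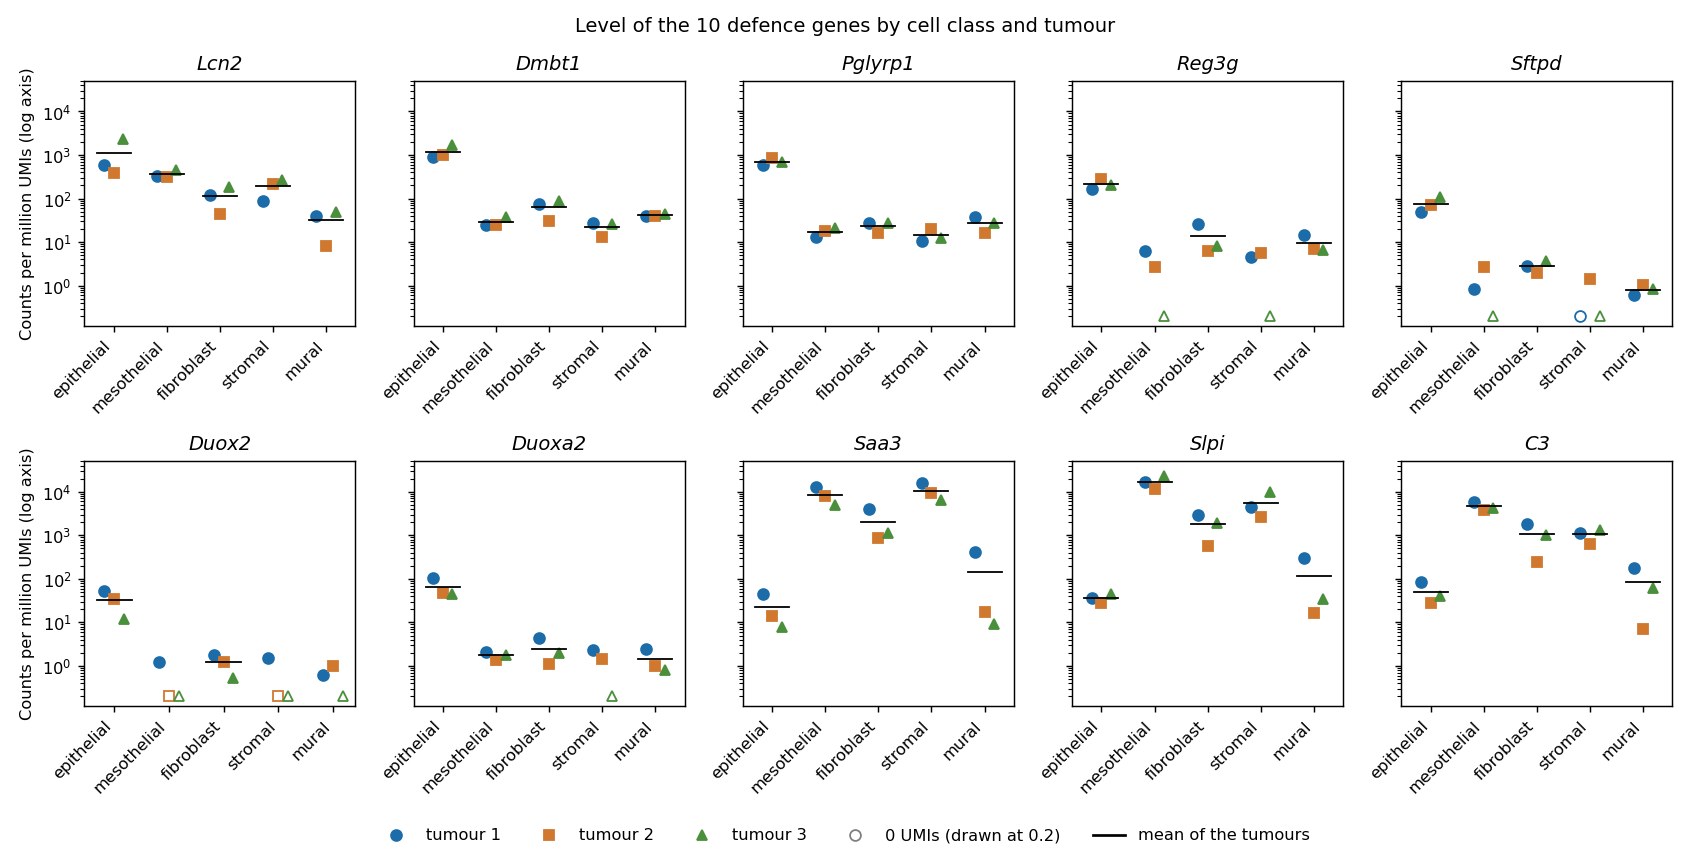
Level of each gene (CPM, log axis) in 5 cell classes; each point is 1 tumour, the bar is the mean where no tumour is at 0, and open points mark 0 UMIs. The 7 genes from Lcn2 to Duoxa2 have their highest means in epithelial cells (1120 for Lcn2, 32.5 for Duox2), and Saa3, Slpi and C3 have their lowest means there (22.2, 36.0 and 51.0).

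Among the genes acting directly on microbes, Lcn2 was the one shared most widely between classes. Its epithelial level was 583, 394 and 2394 CPM in tumours 1, 2 and 3, and the highest was 6.08 times the lowest. Mesothelial cells had 323, 308 and 456 CPM, a range that overlaps the epithelial one, although the epithelial level was the higher in each tumour. Fibroblasts had 123, 45.2 and 184 CPM, stromal cells 87.8, 215 and 268, and mural cells 38.9, 8.09 and 48.0. The order of the means was epithelial, mesothelial, stromal, fibroblast, mural, and the ranges of stromal cells and fibroblasts overlapped, as did those of fibroblasts and mural cells.

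Lcn2 was 2.96 ± 0.30 (log2, SE) higher in epithelial cells than in fibroblasts (edgeR adjusted p = 0.000559) and 1.15 ± 0.25 higher than in mesothelial cells (edgeR adjusted p = 0.00126; higher in 3 of 3 tumours). Without tumour 3 the second difference fell to 0.52 (edgeR adjusted p = 0.00558), and without the tumour block it was 1.56 and missed the threshold (edgeR adjusted p = 0.0732). By share of cells the order of these classes was the opposite in tumours 1 and 2, and in tumour 3 it depended on depth. At 3000 UMIs per cell, 50.0%, 52.8% and 59.0% of mesothelial cells had an Lcn2 UMI, against 27.1%, 24.8% and 52.5% of epithelial cells. The mesothelial interval of tumour 3, 45.7% to 71.4%, includes the epithelial share. Unthinned, the shares were 72.4%, 70.8% and 77.4% against 41.4%, 34.4% and 66.6%. At 2000 UMIs they were 39.5%, 44.4% and 46.8% against 23.2%, 21.3% and 47.9%. The epithelial transcripts were spread less evenly over cells. The 10% of epithelial cells richest in Lcn2 held 81.7%, 81.4% and 65.5% of them, and the richest 10% of mesothelial cells held 38.0% to 40.6%.

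Reg3g was measured at 165, 282 and 201 CPM in epithelial cells and at 26.2, 6.32 and 8.05 in fibroblasts. Mesothelial cells held 15, 2 and 0 Reg3g UMIs in all, and the 0 in tumour 3 allows up to 5.37 CPM. All 3 epithelial values lay above every value of the other classes. Against mesothelial cells the fitted difference was 5.46 ± 0.34 (edgeR adjusted p = 4.51e-10), or 7.28 without tumour 1 and 6.25 in DESeq2, on these few mesothelial UMIs. The difference from fibroblasts was 4.19 ± 0.55 (edgeR adjusted p = 0.00165), and it was 5.12 without tumour 1 and 3.56 without tumour 2. The gene was detected in 17.1%, 21.8% and 21.1% of epithelial cells at 3000 UMIs, and the richest 10% of cells held 78.4% to 85.1% of its UMIs.

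Pglyrp1 varied least between the tumours, with a highest epithelial value 1.40 times the lowest. It stood at 600, 837 and 680 CPM in epithelial cells and at 10.7 to 37.0 CPM in the other 4 classes. At 3000 UMIs it was detected in 55.2%, 65.9% and 59.7% of epithelial cells and in 3.88% to 5.77% of mural cells. It was 4.85 ± 0.28 higher than in fibroblasts (edgeR adjusted p = 0.000105) and 5.35 ± 0.19 higher than in mesothelial cells (edgeR adjusted p = 2.41e-13).

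The microbe-agglutinating proteins followed the same pattern. Dmbt1 stood at 924, 978 and 1685 CPM in epithelial cells, above every value of the other classes, which ran from 12.9 to 86.4 CPM. Its difference from fibroblasts was 4.24 ± 0.29 (edgeR adjusted p = 0.000148), and 44.5%, 40.6% and 53.7% of epithelial cells had a UMI at 3000. Sftpd, best known from lung surfactant, stood at 50.5, 69.6 and 106 CPM in epithelial cells. Fibroblasts had 2.90, 1.95 and 3.79 CPM of it, and mural cells held 1 UMI in each tumour. The epithelial Sftpd level was 4.62 ± 0.25 higher than that of fibroblasts (edgeR adjusted p = 9.14e-05), and its CPM over the 3 tumours was 98.6 times that of mural cells, with a 95% counting interval of 33.7 to 478. Against mesothelial cells, which held 4 Sftpd UMIs, the fitted difference was 5.79 ± 0.41 (edgeR adjusted p = 2.68e-09), or 6.43 without tumour 2. For both genes tumour 3 was the highest epithelial sample.

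Among the 5 classes, the oxidase and its maturation factor were counted mainly in epithelial cells. Duox2 stood at 51.6, 33.8 and 12.1 CPM in epithelial cells, lowest in tumour 3, and Duoxa2 at 106, 47.6 and 44.9 CPM. In the other 4 classes the highest values were 1.83 CPM of Duox2 and 4.35 CPM of Duoxa2, both in the fibroblasts of tumour 1, and cells that met no pair had more (4.51 to 15.6 CPM of Duox2 and 4.88 to 25.5 of Duoxa2). Mesothelial cells held 3 Duox2 UMIs in tumour 1 while tumours 2 and 3 had none, a count of 0 that leaves room for 4.14 and 5.37 CPM. Duox2 was 4.65 ± 0.22 (edgeR adjusted p = 8.88e-05) and Duoxa2 4.75 ± 0.24 (edgeR adjusted p = 9.03e-05) higher than in fibroblasts. Against mesothelial cells, whose few Duox2 UMIs make a fitted value unstable (5.64, or 11.04 without tumour 1), the ratio of CPM over the 3 tumours was 38.8, with a 95% counting interval of 13.2 to 188. Both genes were found in a minority of epithelial cells: 11.8%, 8.96% and 3.43% for Duox2 and 16.8%, 11.3% and 9.70% for Duoxa2 at 3000 UMIs.

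Unthinned, the share of epithelial cells with a UMI ran over the 3 tumours from 25.6% to 30.3% for Reg3g, 54.4% to 67.2% for Dmbt1 and 74.5% to 79.9% for Pglyrp1. It ran from 24.9% to 38.0% for Sftpd, 7.29% to 26.3% for Duox2 and 18.4% to 31.8% for Duoxa2. Tumour 1, whose epithelial cells were deepest, had the highest share of both oxidase genes and the lowest of Reg3g, Pglyrp1 and Sftpd.

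**Figure D2:**
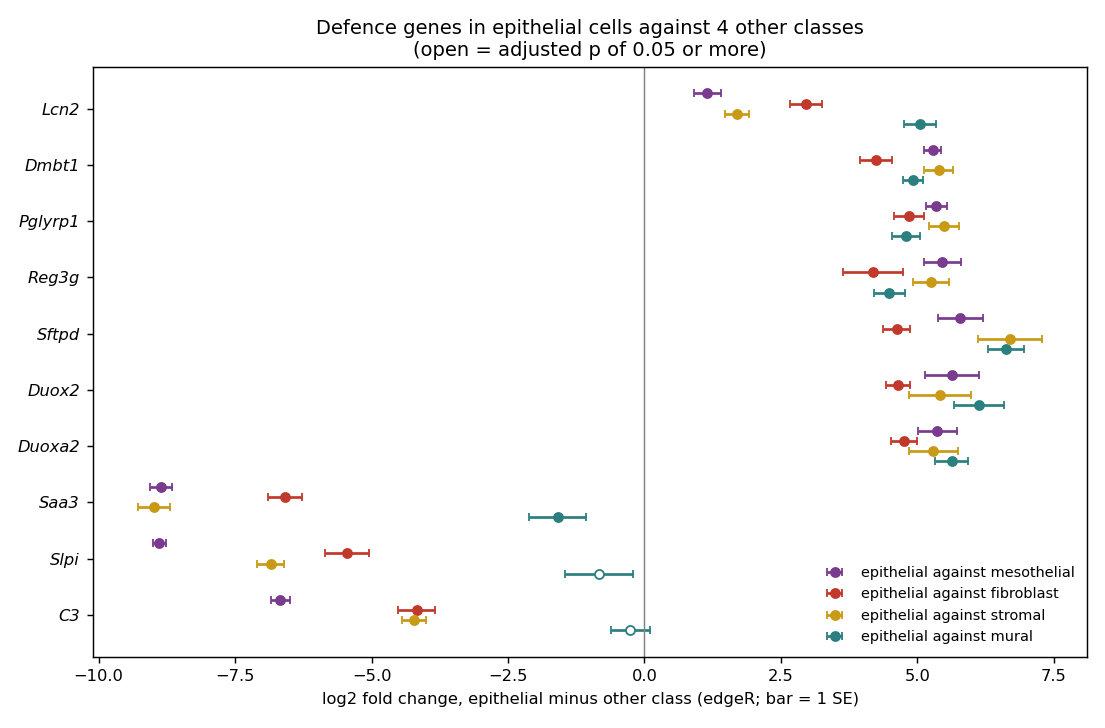
Log2 fold change of each gene in epithelial cells against each of 4 other classes (edgeR; bars are 1 SE; filled points have an adjusted p under 0.05). Lcn2 to Duoxa2 lie right of 0 in all 4 comparisons, and Saa3, Slpi and C3 lie left of 0, with the open points of Slpi and C3 against mural cells.

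Slpi, Saa3 and C3 had their highest levels outside the epithelium. Slpi stood at 17070, 11460 and 22690 CPM in mesothelial cells and at 35.9, 27.8 and 44.3 CPM in epithelial cells, a log2 difference of -8.89 ± 0.12 (edgeR adjusted p = 1.07e-18). It was detected at 3000 UMIs in 90.8%, 88.9% and 95.1% of mesothelial cells. C3 stood at 5863, 3780 and 4298 CPM in mesothelial cells, where every cell of the 3 tumours had at least 1 UMI, and at 84.7, 28.0 and 40.2 CPM in epithelial cells (-6.67 ± 0.17, edgeR adjusted p = 3.18e-15). The epithelial and mesothelial ranges of both genes were far apart. Macrophages, a known source of C3 and Saa3, had 2 of 8 markers with counts in mesothelial cells, Cd68 and Csf1r. Ptprc, Adgre1 and C1qa were among those at 0 there. The list summed to 38.3, 30.4 and 32.2 CPM, with a UMI in 28.1%, 25.0% and 24.2% of mesothelial cells. Its sum was 7.71 to 9.25 CPM in epithelial cells and 7.47 to 13.7 in fibroblasts. The part of macrophages in the mesothelial C3 and Saa3 values was not tested.

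Saa3 stood at 12570, 7801 and 5085 CPM in mesothelial cells, at 15480, 9303 and 6307 CPM in stromal cells, and at 44.3, 14.3 and 8.05 CPM in epithelial cells. The mesothelial and stromal ranges overlapped, and cells meeting both pairs were counted in each class. The epithelial level differed from the mesothelial one by -8.86 ± 0.20 (log2, edgeR adjusted p = 9.3e-16). With the cells that met the epithelial and another pair put back in, the difference was -7.37 for Saa3 against mesothelial cells, and against stromal cells it was -8.10 in place of -8.99. For Slpi against stromal cells it was -5.90 in place of -6.85. The richest 10% of mesothelial cells held 53.0%, 45.8% and 73.1% of the Saa3 UMIs, 35.3%, 41.8% and 30.6% of the Slpi UMIs and at most 24.9% of the C3 UMIs.

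Fibroblasts lay between these classes for all 3 genes and varied more between tumours than mesothelial cells: Saa3 at 3971, 873 and 1155 CPM, Slpi at 2905, 571 and 1930, and C3 at 1851, 244 and 1042. Tumour 1 was highest and, for each gene, tumour 2 was lowest. Epithelial cells differed from fibroblasts by -6.59 ± 0.31 in Saa3 (edgeR adjusted p = 8.88e-05), by -5.45 ± 0.41 in Slpi (edgeR adjusted p = 0.000205) and by -4.17 ± 0.34 in C3 (edgeR adjusted p = 0.000259). Part of the fibroblast level came from cells that also met the mesothelial or stromal pair. In fibroblasts meeting no other pair, the means were 1090 ± 765 CPM for Saa3, 687 ± 499 for Slpi and 797 ± 624 for C3 (SD, n = 3). With classes of cells meeting exactly 1 pair the differences were -5.78 for Saa3 (edgeR adjusted p = 0.000374) and -3.95 for Slpi (edgeR adjusted p = 0.00162). Without tumour 1 the Slpi difference was -4.85 (edgeR adjusted p = 0.000346).

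The 3 genes were not spread over fibroblasts alike. In fibroblasts meeting no other pair, the richest 10% of cells held 95.3%, 97.2% and 99.1% of Saa3 UMIs, and 43.8%, 82.8% and 54.3% of C3 UMIs. In the fibroblasts meeting no other pair as a whole, the genes were found together more often than independent detection would give: Saa3 with Slpi at 1.92, 3.91 and 3.27 times the expected share of cells, and Lcn2 with Slpi at 1.76, 4.02 and 1.98 times. A list of 6 mesothelial markers still summed to 262, 74.8 and 244 CPM in this class, with a UMI in 56.2%, 33.4% and 40.8% of its cells. The part of mesothelial cells with a missed pair marker in these values was not tested. In mesothelial cells, the 6 pairs of Lcn2, Saa3, Slpi and C3 lay at 0.979 to 1.10 times the expected share. Slpi and C3 were found in 88.9% to 98.4% of these cells at 3000 UMIs. Pairs with either gene cannot lie far above 1 there, so they are not comparable with the fibroblast ratios.

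Mesothelial cells were compared with fibroblasts that did not meet the mesothelial pair. Of 9 genes tested (Duox2 did not pass the filter on low counts), 4 were higher and 2 lower in mesothelial cells, where 9.09% of all 13160 genes tested were higher and 7.58% lower. Slpi was higher by 4.88 ± 0.25 (edgeR adjusted p = 1.86e-08), C3 by 3.18 ± 0.39 (edgeR adjusted p = 3.21e-05), Saa3 by 2.86 ± 0.21 (edgeR adjusted p = 2.97e-07) and Lcn2 by 2.19 ± 0.26 (edgeR adjusted p = 2.51e-05), each in 3 of 3 tumours. The C3 difference was 2.30 without tumour 2, and without the tumour block C3 at 2.75 and Lcn2 at 1.99 missed the threshold (edgeR adjusted p = 0.0563 and 0.0521). Lcn2 fell to 1.33 when cells meeting several pairs were kept (edgeR adjusted p = 0.00622).

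The lower genes in that comparison were Reg3g at -2.04 ± 0.46 (edgeR adjusted p = 0.0051) and Dmbt1 at -1.04 ± 0.26 (edgeR adjusted p = 0.0105), both at low levels in either class. Neither passed without tumour 1, with edgeR adjusted p = 0.239 for Reg3g and 0.329 for Dmbt1. The fibroblast level of Reg3g was 15.8%, 2.24% and 4.01% of the epithelial one and that of Dmbt1 7.99%, 3.11% and 5.13%. The epithelial check genes stood in fibroblasts at 2.28% to 18.3%, with medians of 12.7%, 4.22% and 6.40%, of their epithelial levels. Acinar genes, too, stood higher in fibroblasts, with the 7 of that list at 1020, 126 and 538 CPM, against 292, 49.7 and 102 in mesothelial cells. Their part in these differences was not tested. Pglyrp1 did not pass (-0.44, edgeR adjusted p = 0.384), but did without tumour 2, at -0.78 (edgeR adjusted p = 0.0436), and Duoxa2 and Sftpd did not pass (edgeR adjusted p = 0.656 and 0.385).

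Stromal cells, against fibroblasts not meeting the stromal pair in tumours 1 and 2, had 2 genes higher and 1 lower, where 2.18% of 12816 genes tested were higher and 2.15% lower. Saa3 was higher by 3.29 ± 0.27 (edgeR adjusted p = 3.34e-13), Slpi by 1.66 ± 0.27 (edgeR adjusted p = 1.32e-05), and Dmbt1 differed by -1.24 ± 0.34 (edgeR adjusted p = 0.0209). The Dmbt1 call was lost with DESeq2 (adjusted p = 0.363), with DESeq2 size factors (edgeR adjusted p = 0.0901) and at a limit of 10% mitochondrial counts (edgeR adjusted p = 0.108). The Slpi call was lost at that limit (edgeR adjusted p = 0.0556). Cells that also met the mesothelial pair stayed in both sums. The 6 mesothelial markers summed to 618 and 490 CPM in stromal cells of tumours 1 and 2. In the whole fibroblast class of these tumours they summed to 588 and 152 CPM. The part of such cells in the differences was not tested. C3, at 1143 and 643 CPM in stromal cells of these tumours, did not pass (0.52 ± 0.30, edgeR adjusted p = 0.606). Lcn2 did not pass either (1.13 ± 0.37, edgeR adjusted p = 0.0763). Without the tumour block edgeR called 0 genes of the whole table, and Saa3 stood at 2.93 (edgeR adjusted p = 0.748), so these calls rest on the pairing within 2 tumours. DESeq2 called 187 genes.

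Mural cells gave the level at which epithelial transcripts were counted in cells that should lack them. In tumours 1, 2 and 3, the mural level of the 9 epithelial check genes was 2.73% to 8.66%, 1.81% to 3.71% and 2.24% to 5.21% of the epithelial one. The 7 genes lay at 1.19% to 8.96%, 1.45% to 4.14% and 0% to 4.02%. Of their 21 values, those of Reg3g in tumour 1, at 8.96%, and of Dmbt1 in tumour 2, at 4.14%, were above the range of the check genes in the same tumour, both by small margins. The others lay within or below it. In tumour 1, 1 mural cell held 31 of the 63 Lcn2 UMIs, and 1 held 37 of the 60 of Pglyrp1. For Dmbt1 the highest count in a cell was 23 of 64 and for Reg3g 12 of 24. No mural cell of that tumour held more than 1 UMI of Duox2, Duoxa2 or Sftpd. The source of the mural counts was not tested. All 7 were higher in epithelial than in mural cells, from 4.49 ± 0.29 for Reg3g (edgeR adjusted p = 6.56e-07) to 6.62 ± 0.33 for Sftpd (edgeR adjusted p = 1.09e-07), where 23.5% of 13213 genes tested were higher. Median depth was 5359, 5398 and 3507 UMIs per mural cell and 10616, 8958.5 and 7727 per epithelial cell. The Lcn2 difference was 5.05 ± 0.30 (edgeR adjusted p = 4.17e-07), and it was 4.36 with doublets kept and 5.69 without tumour 1. For Reg3g it was 5.18 without tumour 1, and for Sftpd 5.96 with doublets kept.

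**Figure D3:**
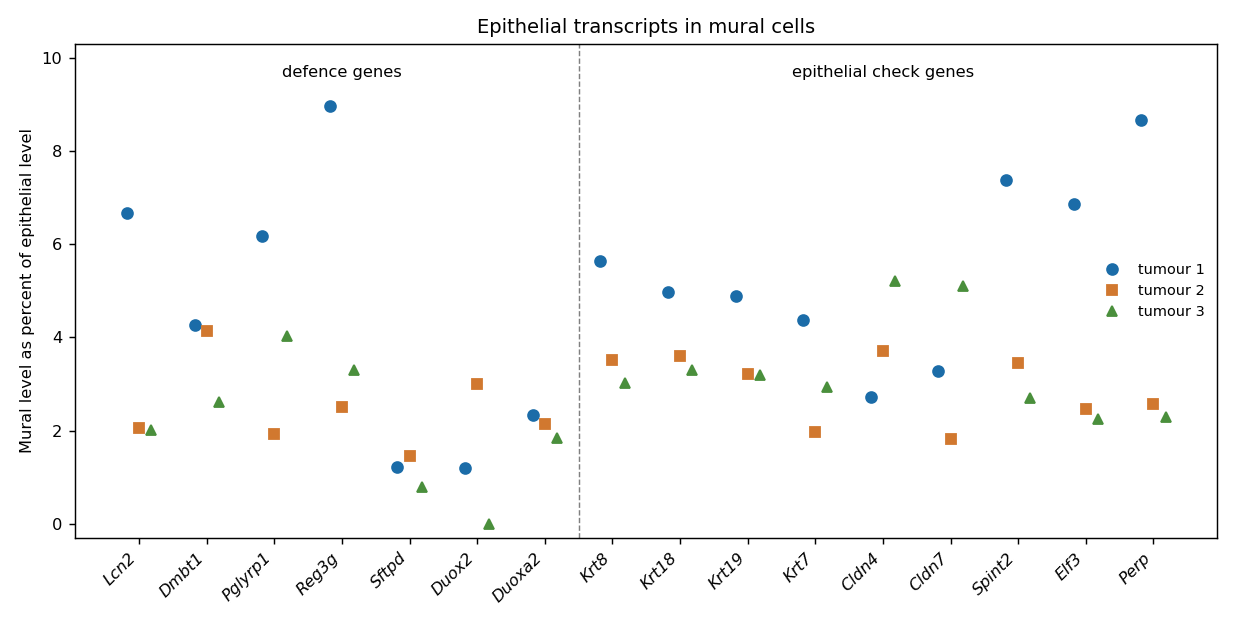
Level in mural cells as a percent of the level in epithelial cells, for the 7 genes higher in epithelial cells (left) and 9 epithelial check genes (right), with 1 point per tumour. The 7 genes span 0% to 8.96% and the check genes 1.81% to 8.66%.

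For Saa3, Slpi and C3 the epithelial level was set against the mural one in the same way. Mural cells of tumour 1 had 408 CPM of Saa3, 302 of Slpi and 182 of C3, against 17.2, 16.2 and 7.08 in tumour 2 and 9.11, 34.0 and 62.1 in tumour 3. In tumour 1 the richest 10% of mural cells held 94.3% of the Saa3 UMIs, and 1 cell held 278. Against mural cells, Saa3 was lower in epithelial cells (-1.59 ± 0.52, edgeR adjusted p = 0.03, where 19.2% of genes tested were lower), while Slpi at -0.83 ± 0.62 and C3 at -0.26 ± 0.36 did not pass (edgeR adjusted p = 0.31 and 0.599). The Saa3 call was lost without tumour 1, at -0.15 (edgeR adjusted p = 0.806), and the difference was -2.22 without tumour 3. Slpi passed without tumour 3 (-1.74, edgeR adjusted p = 0.0177) and C3 without tumour 2 (-0.80, edgeR adjusted p = 0.0211), so each call here turned on 1 tumour.

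Once mural cells that also met the fibroblast pair were left out, Saa3 differed from epithelial cells by 0.10 ± 0.25 (edgeR adjusted p = 0.776), Slpi was 0.55 ± 0.21 (edgeR adjusted p = 0.0571), and C3 was higher in epithelial cells by 1.13 ± 0.34 (edgeR adjusted p = 0.018). At 3000 UMIs per cell, Saa3 was seen in 11.7%, 4.72% and 2.29% of epithelial cells and 14.7%, 7.05% and 1.60% of mural cells, and unthinned in 38.9%, 12.7% and 6.48% against 3.64% to 24.8%. The epithelial Saa3 count was therefore not distinguishable from that of mural cells at this depth. The epithelial level of Saa3 was 0.353%, 0.184% and 0.158% of the mesothelial one, and its highest count in any epithelial cell was 5 UMIs. Slpi and C3 reached higher counts in single epithelial cells, with up to 88 and 26 UMIs.

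Within epithelial cells the genes were not detected independently. Of the 45 pairs among the 10 genes, 21 were detected together above the expected share in all 3 tumours, 3 below it in all 3, and 21 on either side or at it. The expected share is the product of the 2 genes' own shares in that tumour. Among the 21 pairs of the 7 genes higher in epithelial cells, the counts were 14, 1 and 6, with a median ratio of 1.40. Cells of 1 library are not replicates and share its free RNA and depth, so these ratios are descriptions with no test. Pairs of other genes were not counted in this way, so these counts are not shown to be particular to the list.

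Duox2 and Duoxa2 had the highest ratios of the 45 pairs, at 3.20, 3.34 and 4.27 times the expected share. A ratio cannot exceed 1 over the larger of the pair's shares. Pairs with Pglyrp1 or Dmbt1, found in 55.2% to 65.9% and 40.6% to 53.7% of epithelial cells, therefore cannot reach such values. In tumour 1, 122 cells (6.36%, exact 95% interval 5.31 to 7.55) had both, against 1.99% expected. The shares with both were 3.37% against 1.01% in tumour 2 and 1.42% against 0.333% in tumour 3. Of the cells with Duox2, 53.7%, 37.6% and 41.4% also had Duoxa2.

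A second set linked Reg3g, Dmbt1 and Sftpd. Reg3g with Sftpd lay at 2.31, 2.32 and 1.70 times the expected share, and Reg3g with Dmbt1 at 1.73, 1.97 and 1.52 times. Of the epithelial cells with Reg3g, 77.1%, 79.9% and 81.7% also had Dmbt1. Lcn2 joined this set through Sftpd (2.01, 1.94 and 1.43 times) and Reg3g (1.56 to 2.07 times).

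C3 went with Lcn2 and Slpi. The pair of Lcn2 and C3 lay at 2.33, 2.90 and 1.46 times the expected share, and 63.2%, 71.9% and 76.6% of epithelial cells with C3 also had Lcn2. Slpi with C3 lay at 1.58, 2.58 and 2.29 times, on 62, 18 and 58 cells. Lcn2 and Duox2 were on the other side, at 0.814 to 0.970 times the expected share, close to 1 in each tumour. Duox2 with C3 lay at 0.694 to 0.880 times and Saa3 with Duoxa2 at 0.469 to 0.824 times, both on small counts, with as few as 8.6 and 6.4 cells expected. None of these 3 pairs stayed below 1 in all tumours at 2000 UMIs (highest ratios 1.14, 1.77 and 1.18) or unthinned (1.06, 1.19 and 1.12).

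**Figure D4:**
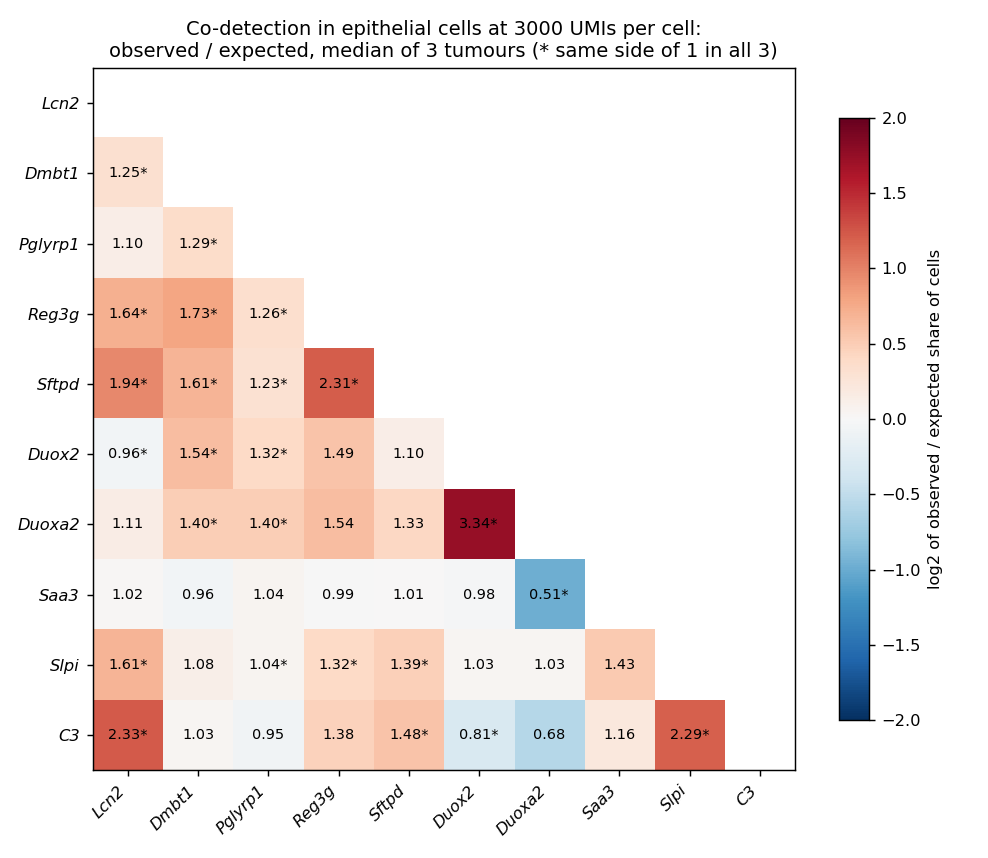
Observed over expected share of epithelial cells with both genes of a pair, at 3000 UMIs per cell (median of 3 tumours; an asterisk marks pairs on the same side of 1 in all 3; colour is the log2 of the ratio). The highest median is 3.34 for Duox2 with Duoxa2, and the row of Saa3 runs from 0.508 with Duoxa2 to 1.43 with Slpi.

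Counting how many of the 7 genes a cell held gave the same picture, again with no other genes counted beside them. In tumours 1, 2 and 3, 20.2%, 22.0% and 15.5% of epithelial cells had none at 3000 UMIs, against 9.53%, 8.11% and 4.64% expected from independent detection. At the other end, 4.38%, 7.95% and 8.70% had 5 or more, against 1.09%, 0.999% and 1.95% expected.

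**Figure D5:**
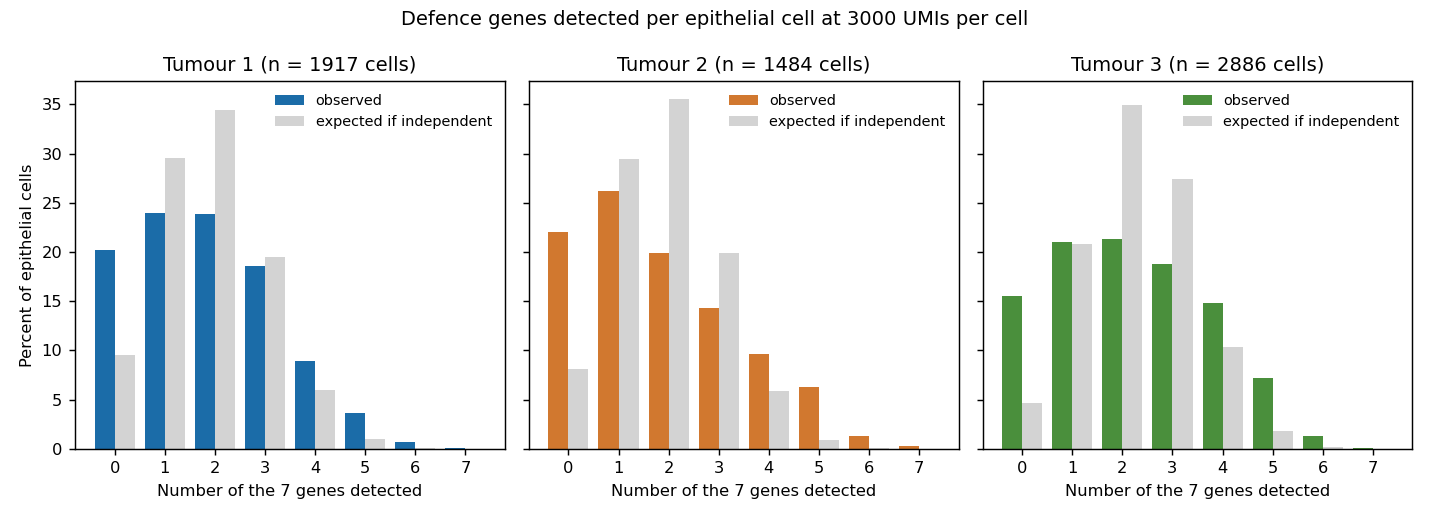
Percent of epithelial cells in which 0 to 7 of the 7 genes were detected at 3000 UMIs per cell, observed (coloured) and expected if detection were independent (grey), 1 panel per tumour. Observed bars exceed the grey ones at 0 and at 4 or more genes in each tumour.

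The genes most like each member across epithelial cells were named by the lowest of its 3 within-tumour phi coefficients, a correlation of detection, over 7811 genes, with the list of 10 and the class markers left out, in 1917, 1484 and 2886 cells at 3000 UMIs. Values between members of the list are given after them. Lcn2 went with Mmp7, which encodes a matrix metalloproteinase, at 0.28, Cp (ceruloplasmin) at 0.27, Lrg1 and Mgst1 at 0.23 and Lbp, the lipopolysaccharide-binding protein, at 0.20. Reg3g went with its family members Reg3b (0.41) and Reg1 (0.39), then 2210407C18Rik and Mmp7 (0.22) and Tff2 (0.21). Reads of near-identical family members can be split by the counting, so the Reg values are uncertain to that extent. Dmbt1 went with the trefoil factor Tff2 (0.42), the galectin Lgals4 (0.37), 2210407C18Rik (0.35), Reg1 (0.33) and Car2 (0.30).

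Pglyrp1 went with Lgals4 (0.35), Plac8 (0.27), Gsta4 (0.26), Tff2 (0.25) and Fxyd3 (0.24), and Sftpd with Mmp7 (0.24), Reg1 (0.22), Reg3b (0.21), Pdzk1ip1 and Car2 (0.18). C3 went with Cp (0.25), the transferrin gene Trf (0.15), Ifitm3 (0.13), Mmp7 and Lrg1 (0.12). Duoxa2 went with Prap1 (0.19), then Ltf (lactoferrin), AA467197 and Lgals4 (0.16) and 2210407C18Rik (0.14), and Duox2 with Prap1 (0.15), 2210407C18Rik (0.14), Gkn1 (0.13), Muc4 and Bace2 (0.12). Slpi reached no more than 0.09 with any of these genes (Cp) and Saa3 no more than 0.037, which in sparse counts is no finding.

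Between members the same coefficient was 0.29 for Dmbt1 with Reg3g and for Dmbt1 with Pglyrp1, which ranks Dmbt1 above Mmp7 for Reg3g and above Plac8 for Pglyrp1. It was 0.23 for Lcn2 with Sftpd, 0.22 for Dmbt1 with Sftpd and 0.20 for Reg3g with Sftpd. Duox2 with Duoxa2, at 0.20, exceeded each of the 7811 genes for both. Lcn2 stood at 0.18 with Reg3g, 0.15 with C3 and 0.12 with Slpi, which was the highest value of Slpi.

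Another 83 defence genes were set beside the 10, of which 79 were in the files. Against fibroblasts, 61 were tested, 17 were higher and 20 lower in epithelial cells, with a median log2 difference of -0.116. Of all genes tested in this comparison, 16.8% were higher and 22.8% lower, which is the background for the lists that follow. The antiproteases and secreted mucosal proteins leaned to the epithelium, with 6 of 7 tested higher and none lower. Of the oxidase list 3 of 7 were higher and 1 lower, and of the Reg and lectin list 2 of 7 were higher and none lower. Iron-binding and bactericidal proteins had 1 of 6 higher and 3 lower, and so did the recognition and acute-phase list and the complement list. All 3 receptors and partners tested were lower. The genes with the highest differences over all lists were Bpifb1 (5.23), Ltf (4.74), the antiprotease-like Wfdc18 (4.64), Pigr, which carries IgA across epithelia (4.43), Gpx2 (4.42) and Wfdc2 (4.22). The lowest were haptoglobin Hp (-4.91) and Camp (-5.31, at 0.0221 against 0.883 CPM). Bpifb1 was also scarce, at 2.84 CPM in epithelial cells. Each of these 8 passed in edgeR with an adjusted p of at most 0.0068.

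Complement genes other than C3 were counted next. Against mesothelial cells, 4 of 6 were lower and 1 higher in epithelial cells, where 18.4% of all genes were lower and 22.1% higher. In mesothelial cells against fibroblasts, 4 of 6 were higher and none lower, where 9.09% of all genes were higher and 7.58% lower. Of the 20 sensing and signalling genes tested in that last comparison, 11 were higher and none lower in mesothelial cells, with a median log2 difference of 0.96, against -0.0345 over all genes. They included Nfkbiz (1.51 ± 0.18, edgeR adjusted p = 2.96e-05), Nfkbia (1.45 ± 0.18, edgeR adjusted p = 3.28e-05) and Cebpb (0.62 ± 0.17, edgeR adjusted p = 0.0199), 3 names picked after their values were seen. In epithelial cells against fibroblasts, 3 of 19 genes of this list were higher and 7 lower, where 16.8% and 22.8% of all genes were. Of the other Reg and lectin genes, 5 of 6 tested were higher in epithelial than in mesothelial cells and 1 was lower, beside the 22.1% and 18.4% of all genes.

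The authors' deposited table has log2 fold changes with adjusted p-values for 19 clusters, and it was used only to place the genes. At an adjusted p under 0.05 in the authors' deposited table, Saa3 and Slpi were higher in cluster 9 alone, with log2 fold changes of 6.36 and 7.56, and Upk3b and Lrrn4 were also higher in that cluster alone. Serpinb2 and Ptgis had their highest values in the same cluster of the authors' deposited table, at 4.81 and 4.68. That cluster therefore does not tell mesothelial from stromal cells. C3 was higher in clusters 9, 11 and 2 of the authors' deposited table. In the authors' deposited table, Lcn2, Reg3g, Dmbt1, Sftpd, Pglyrp1 and Duoxa2 were all higher in cluster 1, where Epcam and Cdh1 were higher too. Reg3g stood higher in cluster 7 of the authors' deposited table, at 3.16 against 1.99 in cluster 1. Pglyrp1 was highest in cluster 8 of the authors' deposited table, at 1.97, and Lcn2 was also higher in cluster 17, at 3.24. Duox2 was higher in clusters 8 and 7 of the authors' deposited table, and Duoxa2 had its highest value there in cluster 8, at 3.78.

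Cells that met no marker pair, 994, 2208 and 1481 in the 3 tumours, entered no comparison. They were a mixed remainder, with the epithelial list at 6070, 2050 and 5200 CPM and the acinar list at 9100, 636 and 6070 CPM. A list of endothelial genes reached 287 CPM in tumour 1, and a list of endocrine genes 398 CPM in tumour 3. Lcn2 stood at 478, 98.3 and 2335 CPM in these cells, in the same order of tumours as the epithelial class. The other genes higher in epithelial cells were also counted there, with Dmbt1 at 194 to 1420 CPM, Pglyrp1 at 125 to 431, Reg3g at 65.6 to 195 and Sftpd at 13.5 to 86.4. Saa3 averaged 33.1 ± 19.4 CPM in them (SD, n = 3). Which kinds of cell in this remainder held the genes was not tested.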

How the data were processed

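The authors deposited a matrix of UMI counts per gene and cell for 3 tumours pooled in 1 file, made from 10x 3' libraries. Per the submitters' processing notes, Cell Ranger 2.1.1 and Seurat 3.0 were used. The sources used here do not name a genome build. Tumours were told apart by the barcode suffix, and pairs of tumours shared 50, 65 and 57 barcode sequences. The authors' deposited table of 19 clusters gives log2 fold changes and adjusted p-values, which were only quoted.

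Cells with under 500 genes, over 20% mitochondrial counts or a Scrublet doublet call (scanpy 1.11.5; 74, 94 and 144 cells) were left out. Classes needed at least 1 UMI of both genes of a pair. Counts were summed per tumour and class and tested with edgeR 4.0.16 (TMM, filterByExpr, quasi-likelihood, tumour as block, Benjamini-Hochberg at 0.05), with the 10 class markers left out of the fit. A tumour with under 20 cells of a class was left out of that comparison. The block comes from both sums being of the same tumour. DESeq2 1.42.0 was an alternative. The model scripts were tested on simulated data. Shares of cells and co-detection used cells thinned to 3000 UMIs, dropping 91 epithelial cells of tumour 3 and none of tumours 1 and 2. Intervals cover counting error only, at 95%.

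All members were named, and of other defence genes the 6 highest and 3 lowest against fibroblasts that passed with 1 sign in every tumour. Of these 9, 1 gene, and 1 gene of the epithelial check list, are not reported here, and the check values are over the other genes. Members, lists and tests were chosen with earlier results of these data known, and the levels in fibroblasts meeting no other pair and in cells meeting no pair were added after the data were seen. Splitting such classes by marker genes also leaves out cells in which a marker was missed.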

Additional observations from a re-analysis of the deposited data

How the results depend on the processing

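In 547 repeats of the member tests under other settings, 508 kept the direction and the side of the threshold, 18 lost the call, 10 gained one and 11 changed sign; the cause was not tested. Against fibroblasts and stromal cells, all 110 and all 70 repeats of the epithelial results kept both, and against mesothelial cells 99 of 100 did. Without the replicate block (the pairing of sums by tumour), edgeR called 3387 genes in place of 5819 for epithelial cells against fibroblasts, 3516 in place of 5389 against mesothelial cells, 3722 in place of 5652 against mural cells, 706 in place of 2193 for mesothelial cells against fibroblasts (2 members higher, 0 lower) and 0 in place of 555 for stromal cells against fibroblasts (0 members higher, 0 lower). DESeq2 called 1902 genes in place of 4100 for epithelial against stromal cells. For stromal cells against fibroblasts it was 219 genes with DESeq2 size factors, 187 with DESeq2 and 198 at a limit of 10% mitochondrial counts, each with 0 members lower (1 higher at the 10% limit), and 939 with 4 lower when cells meeting several pairs were kept. At the 10% limit Slpi there was 1.67 (edgeR adjusted p = 0.0556), and Lcn2 passed with no filter on low counts at 1.10 (edgeR adjusted p = 0.0193).

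Leaving out 1 tumour gave 3659 to 5587 genes for epithelial cells against fibroblasts and 1337 to 2565 for mesothelial cells against fibroblasts, where 0 to 3 members were lower; the lowest counts were those without tumour 1. With several pairs kept, 4 were lower there. Against mural cells the 1 lower member became 0 to 2 when a tumour was left out, and 0 with DESeq2, without the block, with cells meeting exactly 1 pair and with several pairs kept. The signs that changed against mural cells were those of Slpi (0.61 without tumour 1, 0.55 with exactly 1 pair, 0.01 with several kept), Saa3 (0.10 and 0.22 in the last 2 settings) and C3 (0.26, 1.13 and 0.17). Leaving out a tumour there gave -1.74 to 0.61 for Slpi and -0.80 to 0.26 for C3. In mesothelial cells against fibroblasts without tumour 1, Duoxa2 turned to 0.18 (lowest -0.90, without tumour 2) and Pglyrp1 to 0.00 (lowest -0.78, without tumour 2), and in stromal cells against fibroblasts without the block C3 turned to -0.06.

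Of the 45 pairs, 24 lay above the expected share in all tumours at 2000 UMIs per cell, 26 unthinned and 21 with doublets kept, against 21. The test of cells meeting exactly 1 pair was not run for mesothelial and stromal cells, of which too few remained, nor was leaving out a tumour for the stromal comparisons. With 3 tumours, and 62 and 72 mesothelial cells in tumours 3 and 2, low genes outside the epithelial class rest on single UMIs.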
